A study of Mus musculus with 77 samples.

Results

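Expression in Cebpa knockout (KO) and wild type preGM was compared over 10096 mouse genes. All were taken from the deposited enhancer table, which repeats 1 expression value per gene and genotype on every enhancer row assigned to the gene, so these are the genes with at least 1 listed enhancer and not the whole transcriptome. preGM are early granulocyte-monocyte progenitors of the bone marrow, sorted here as lineage-negative, Sca-1-, ckit+, CD150- and CD105- cells from wild type or CEBPA KO mice. The labels list 3 RNA libraries for each genotype, 6 of the 77 samples of the series. They give no strain, age, allele or deleter for the knockout. Beside the expression values stand H3K27ac, H3K4me1 and PU.1 signal in wild type and KO preGM, and CEBPA signal in wild type preGM, from 2 listed ChIP-seq libraries per group. Expression in wild type LSK (lineage-negative, Sca-1+ multipotent progenitors, with ckit listed without a sign), preGM, GMP (the later granulocyte-monocyte progenitor, Sca-1-, ckit+, CD150- and FcgRII/III+) and Mac1+Gr-1+ granulocytes, from 3 listed libraries each, is given as a separate set of columns.

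The table holds 1 value per group, so none of the differences below has a replicate check, an error or a test. Values are in the authors' units and depth per library is unknown. The expression values are never 0 (the lowest in KO preGM is 6.45 and the highest 10953), are not whole numbers, and are exactly equal in the KO and wild type columns for 92 genes. Sorted from low to high, those columns differ by at most 0.13 on the log2 scale at any rank. How these columns were made is not stated in the sources used here. Their names match the listed RNA libraries, but whether their values come from those libraries or from another platform or normalization is not stated either. The wild type column of the genotype pair and the preGM column of the stage set match the same 3 libraries by name, yet they had a Spearman correlation of 0.79 across genes, against 0.98 for KO with wild type within the pair, so differences are taken within a set, and the sets are put side by side only to show where they disagree. Whether the values are scaled to gene length is not stated, so levels of different genes are not ranked against each other. A difference is given as the log2 ratio of KO over wild type after adding a pseudocount of 40 to both, the 25th percentile of all expression values rounded to 1 digit, and folds are given on the deposited values without it. In bulk samples, fewer cells of a type and less RNA per cell cannot be told apart.

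C/EBPα, the product of Cebpa, is a basic leucine zipper factor that binds enhancers of myeloid genes and is needed for multipotent cells to pass through the granulocyte-monocyte progenitor stage. PU.1, the product of Spi1 (named Sfpi1 in the table), is an ETS factor that often binds near it at the same enhancers. Among the targets attributed to both are the genes of the primary granule, whose proteases are the first granule proteins that myeloid progenitors make, and the receptors for colony-stimulating factors. H3K27ac marks active enhancers and H3K4me1 marks enhancers whether active or poised.

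Because 4 genes of the primary granule list were among those lower in KO preGM, the 250 bases before their RefSeq start sites are shown first (build GRCm38.p6, a different build from the mm9 enhancers). Ctsg, Prtn3 and Elane encode granule proteases, and Ms4a3 does not encode a granule protein. Capitals mark GAGGAA or its reverse complement TTCCTC, a core often bound by PU.1. The C/EBP-type motif TTGCNNAA, or TTNNGCAA on the other strand, was searched for in the same way, motifs being allowed to overlap, and is in none of the 4 windows. Ctsg lies on chromosome 14 (minus strand, 56102575 to 56102824), Prtn3 and Elane are neighbours on chromosome 10 (plus strand, 79879417 to 79879666 and 79886062 to 79886311), and Ms4a3 lies on chromosome 19 (minus strand, 11640852 to 11641101).
Ctsg: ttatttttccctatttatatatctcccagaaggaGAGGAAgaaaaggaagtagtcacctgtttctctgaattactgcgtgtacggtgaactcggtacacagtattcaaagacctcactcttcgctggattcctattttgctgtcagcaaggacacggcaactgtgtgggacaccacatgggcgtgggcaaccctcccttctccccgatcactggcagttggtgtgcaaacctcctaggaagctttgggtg
Prtn3: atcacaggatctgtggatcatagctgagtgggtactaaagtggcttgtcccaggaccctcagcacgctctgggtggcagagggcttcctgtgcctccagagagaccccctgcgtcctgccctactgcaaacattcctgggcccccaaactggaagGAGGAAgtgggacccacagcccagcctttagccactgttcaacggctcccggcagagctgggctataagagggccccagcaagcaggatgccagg
Elane: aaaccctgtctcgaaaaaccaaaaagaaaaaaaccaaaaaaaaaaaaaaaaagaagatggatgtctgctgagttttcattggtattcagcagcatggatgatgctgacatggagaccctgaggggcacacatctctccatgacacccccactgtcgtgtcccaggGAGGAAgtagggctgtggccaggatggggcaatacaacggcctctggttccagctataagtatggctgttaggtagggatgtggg
Ms4a3: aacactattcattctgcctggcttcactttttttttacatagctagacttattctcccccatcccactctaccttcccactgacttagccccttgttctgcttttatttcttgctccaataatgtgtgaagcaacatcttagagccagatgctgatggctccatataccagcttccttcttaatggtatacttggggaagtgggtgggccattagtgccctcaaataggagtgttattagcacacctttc
The core begins 216 bases before the start of Ctsg, 95 before that of Prtn3 and 85 before that of Elane, and in all 3 it is read as GAGGAA on the gene's own strand. Ms4a3 has none. Windows were found for 33 of the 41 genes lower in KO and 22 of the 28 higher, described next. A gene can have more than 1 window. The GAGGAA core was in 11 of 37 windows of the lower genes (29.7%) and 11 of 29 of the higher (37.9%). It was in 21.9% of the 10340 windows of all genes compared here and 23.3% of all 32851 windows. TTGCNNAA was in 2 of 37 (5.41%), 5 of 29 (17.2%), 7.28% of the 10340 and 9.56% of all. Most of those 5 are alternative windows of a single gene, Ffar2, and the others are of Clec4e and Il1rl1. Windows of a gene are not independent, so the share of the higher genes rests largely on Ffar2. These are matches of letters, and no match in a window says nothing of binding elsewhere.

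The targeted gene was lower in the KO column but still had a value there. Cebpa had 208 in wild type and 48.3 in KO, 4.32-fold lower, with a log2 ratio of -1.49. Which part of the gene is deleted is not given in the labels, so a remaining transcript cannot be told apart from background. Spi1, which encodes PU.1, had 302 in wild type and 196 in KO, a log2 ratio of -0.54, short of 2-fold. The surface markers of the sort were measured as well. Kit, the stem cell factor receptor selected for, was at 1317 in wild type and 1219 in KO, Eng (CD105), selected against, at 123 and 135, and Ly6a (Sca-1), also selected against, at 128 and 229, a log2 ratio of 0.68.

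Most genes had almost the same value in KO and wild type preGM, and the exceptions were few. In KO preGM 28 of the 10096 genes had at least 2-fold more signal (0.277%) and 41 at least 2-fold less (0.406%). The median log2 ratio was 0, the quartiles were -0.09 and 0.08, and 96.3% of genes lay within 0.5 of no difference. A lower value in KO was found for 4969 genes and a higher one for 5035, the base for the sign counts of the lists below. The lowest ratio was -3.21 (Ctsg) and the highest 2.70 (Scin), as the plot of expression in both genotypes shows. Just inside the limit lay Cebpg at 1.00, Serpine2 at 1.02 and Trp53inp1 at 1.04, with Ctla2b at 0.98 and Usp18 at 0.97 just outside. On the lower side Tmem50b at -1.03 and Tm6sf1 at -1.04 were inside, and Cd68 at -0.99 was outside. The counts move with the pseudocount: 12 higher and 17 lower with one 4 times larger, under which 17 of the 51 genes named by rule cross the limit, and 48 higher and 70 lower with none.

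**Figure D1:**
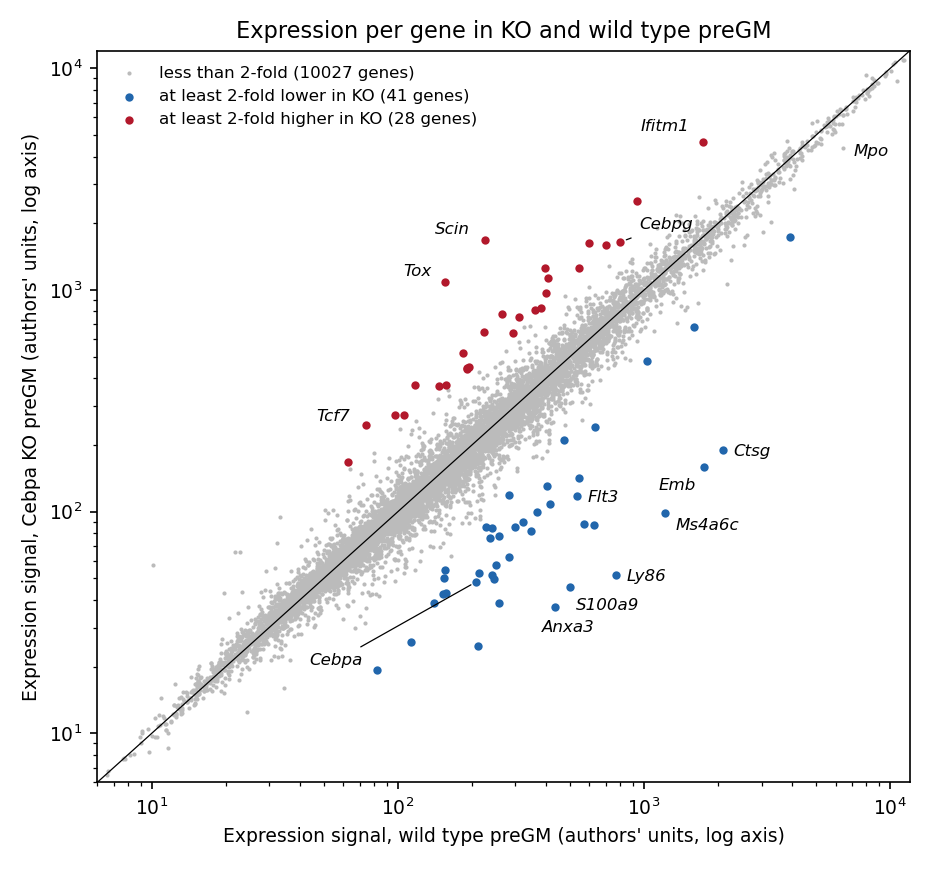
Expression signal of 10096 genes in wild type (x axis) and KO preGM (y axis), authors' units on log axes, 1 point per gene, with the line of equal values; colours mark genes past 2-fold after the pseudocount. The cloud lies along the line, Ly86, Ms4a6c and Anxa3 lie farthest below it, and Scin and Tox farthest above.

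The lowest ratios included genes of granule proteases, monocytes and neutrophils. Ctsg, which encodes the granule protease cathepsin G, had 2096 in wild type and 190 in KO, 11.0-fold lower (log2 ratio -3.21). Ms4a6c, a membrane-spanning family member of myeloid cells, had 1218 and 98.7, 12.4-fold lower (-3.18). Emb, embigin, a partner of monocarboxylate transporters, had 1758 and 160, 11.0-fold lower (-3.17). Ly86, which encodes MD-1, the partner of the receptor RP105, had 768 and 51.7, 14.9-fold lower and the largest fold of the 4 without a pseudocount.

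The next ratios belonged to genes of several kinds. S100a9 and S100a8, the subunits of calprotectin, had 498 and 45.7, and 212 and 24.8, in wild type and KO. Their log2 ratios were -2.65 and -1.96, so both subunits were lower. Anxa3, an annexin of neutrophil granules, had 433 and 37.2 (-2.61), and Cxcr2, the neutrophil chemokine receptor, 570 and 87.7 (-2.26). Igsf6, an immunoglobulin superfamily member, had 626 and 86.8 (-2.39). F13a1, the A subunit of coagulation factor XIII, made by monocytes and macrophages, had 258 and 38.7 (-1.92), and Ms4a6b had 546 and 141 (-1.70). Ms4a6b and Ms4a6c are close paralogs, and whether reads were shared between them is not known.

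Flt3, the receptor of early lymphoid and myeloid progenitors, was lower as well, at 536 in wild type and 118 in KO (-1.86). It was the 1 gene of 24 measured stem and multipotent progenitor genes past 2-fold, against 0.406% of all genes lower, and none was higher. Hlf, a leucine zipper factor of stem cells, had 559 and 260, just short of the limit, and Cd34, a surface marker of progenitors, had 1659 and 873 (-0.90). The median of the list was -0.11. Meis1, a homeobox partner, at 695 and 640, and Gata2, a stem cell and mast cell factor, at 215 and 245, were close to equal.

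The primary granule list also holds genes whose products are not granule proteins, Ms4a3 among them. Within it 4 of 11 measured genes were at least 2-fold lower and none higher, against 0.406% of all genes, with a median of -0.31. These were Ctsg, Ms4a3, a cell cycle regulator of granulocyte-monocyte progenitors (413 and 109, -1.61), Prtn3, proteinase 3 (366 and 99.2, -1.54), and Elane, neutrophil elastase (213 and 53.1, -1.44). Of the 11 genes 7 had a lower value in KO and 4 a higher one, and the summed level was 23476 in wild type and 19578 in KO. Mpo, myeloperoxidase, was at 6433 and 4372 (-0.55) and Calr, the chaperone calreticulin, at 2768 and 2226 (-0.31), short of 2-fold. Cst7, cystatin F, at 1616 and 2160, and Srgn, serglycin, at 3270 and 4047, were higher in KO without reaching 2-fold. Ctsc, which activates the granule proteases, was at 395 and 412.

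Among 16 measured genes of secondary granules and mature neutrophils 3 were at least 2-fold lower, S100a8, S100a9 and Cxcr2, against 0.406% of all genes, and none was higher, with a median of -0.24. A lower value in KO was found for 13 of the 16. Of the granule proteins proper Ltf, lactoferrin, had 43.2 and 33.3, Camp, cathelicidin, 77.3 and 57.6, Lcn2, lipocalin 2, 47.4 and 34.1, and Ngp, neutrophilic granule protein, 74.3 and 36.9 (-0.57). Lyz2, lysozyme, was at 460 and 309 (-0.52). The summed level of the list was 2356 in wild type and 982 in KO. Whether more mature cells in the wild type sort took part in this difference was not tested.

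The monocyte and macrophage list had the lowest median of the 14 lists. All 17 measured members had a lower value in KO, 8 of them by at least 2-fold, against 0.406% of all genes, and the median was -0.46. Beside Ms4a6c, Ly86 and F13a1 these were Mpeg1, perforin-2 (242 and 51.7, -1.62), Ccr2, the receptor for monocyte chemoattractant (323 and 89.8, -1.48), Irf8, the interferon regulatory factor that directs monocyte development (299 and 84.8, -1.44), Ctss, cathepsin S (403 and 131, -1.37), and Csf1r, the receptor for macrophage colony-stimulating factor (140 and 38.8, -1.19). The other 9 were short of 2-fold, from Tgfbi, a secreted matrix protein (103 and 64.3, -0.46), to Cd14, the lipopolysaccharide co-receptor (42.0 and 40.5), and Klf4, a zinc finger factor (57.8 and 57.0). The summed level of the list was 4277 in wild type and 1116 in KO.

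The receptors differed from each other. Of 17 measured growth factor and cytokine receptors 2 were at least 2-fold lower, Flt3 and Csf1r, and 1 was at least 2-fold higher, Il1rl1, which encodes the interleukin-33 receptor ST2 (310 and 758, 1.19), against 0.406% and 0.277% of all genes. Csf3r, the G-CSF receptor of granulocytes, had 150 and 92.4 (-0.52), and Il6ra, the interleukin-6 receptor, 127 and 101 (-0.24), neither past the limit. Il6st, the shared signalling chain gp130, was at 355 and 177 (-0.86). The alpha chain of the granulocyte-macrophage receptor, Csf2ra, was at 244 and 216.

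Among 20 measured myeloid transcription factors Irf8 and Cebpa, the targeted gene itself, were at least 2-fold lower and Cebpg at least 2-fold higher. Of all genes 0.406% were lower and 0.277% higher. The median of the list was -0.0031. Cebpg encodes a C/EBP family member that lacks an activation domain and pairs with the others. It had 802 in wild type and 1646 in KO, 2.05-fold higher, and lies near Cebpa on chromosome 7. The other family members differed little: Cebpb was at 87.6 and 110 (0.24) and Cebpd at 107 and 81.7 (-0.27). Nfe2, a factor of megakaryocytes and red cells, was at 896 and 1379 (0.60), Gfi1b, of the same lineages, at 286 and 406 (0.45), Gfi1, the granulocytic repressor, at 85.8 and 76.2, and Runx1 at 657 and 644.

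Of the 28 genes higher in KO 3 stand in the lists, Cebpg, Il1rl1 and Tcf7. Scin, scinderin, which severs actin filaments, had 226 in wild type and 1683 in KO, 7.46-fold higher (2.70). Tox, an HMG-box factor of T cell development, had 156 and 1084, 6.96-fold higher (2.52). These 2 stood apart, since the next gene, Clec4e, the receptor Mincle, had 396 and 1254 (1.57). Ifitm1, an interferon-induced membrane protein, had 1737 and 4669 (1.41), and Rtp4, also induced by interferon, had 264 and 780 (1.43).

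Further genes with ratios of 1.32 to 1.39 were Dpp4, the protease CD26 (598 and 1635), Ccl5, the chemokine RANTES (405 and 1127), Lphn2, an adhesion receptor now named Adgrl2 (937 and 2526), Eps8l3 (117 and 373), the water channel gene Aqp11 (225 and 647), the sialyltransferase gene St8sia6 (184 and 520), and Tcf7, the T cell factor TCF-1 (74.1 and 245). Tcf7 was the 1 of 9 measured T and NK cell genes past 2-fold, against 0.277% of all genes higher. Of the 9 genes 5 had a higher and 4 a lower value in KO, and the median was 0.085. Lck, the T cell receptor kinase, was at 91.6 and 175 (0.71), Cd7 at 69.5 and 109 (0.45), and Gata3 at 68.7 and 100.3 (0.37). Notch1, the receptor of T cell commitment, was at 116 and 82.4 (-0.35), Cd2, an adhesion receptor, at 64.9 and 48.6 (-0.24), Il2rb, an interleukin-2 receptor chain, at 52.2 and 49.7, and the defining marker Cd3d at 31.6 and 29.2. The summed level of the list was 614 in wild type and 890 in KO, with Tcf7 and Lck the genes of the largest differences. The part of T or NK cells in the ratio of Tcf7 was not tested.

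Lists of other lineages had no gene past 2-fold in most cases, but many of their genes were not measured. Of all genes 0.406% were at least 2-fold lower and 0.277% at least 2-fold higher. Measured were 9 of 18 erythroid, 7 of 13 megakaryocyte, 4 of 11 mast cell, basophil and eosinophil, and 6 of 12 B cell genes. Of the monocyte and macrophage list 17 of 19 were. A difference at the unmeasured genes could not be seen. All 9 measured erythroid genes had a higher value in KO, with a median of 0.28 and none past the limit. Car2, carbonic anhydrase 2, was nearest, at 720 and 1285 (0.80), and Tfrc, the transferrin receptor, was at 405 and 419. Of 7 megakaryocyte genes none was past 2-fold, the median was 0.15, Cd9 was at 220 and 362 (0.63), and Fli1, which is also a stem cell factor, at 923 and 805. Of 4 genes of mast cells, basophils and eosinophils Hdc, histidine decarboxylase, was lower (154 and 50.3, -1.10) and the other 3 were not past the limit. None of 6 B cell genes was past 2-fold, with Vpreb1, of the surrogate light chain, at 229 and 360 and Dntt, the template-independent DNA polymerase, at 749 and 727. Of 8 dendritic cell genes Flt3 alone was past it, with a list median of -0.02.

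Genes of proliferation had small negative ratios. None of 23 measured cell cycle and replication genes was past 2-fold, but 19 had a lower value in KO and the median was -0.25. Over all 10096 genes 4969 had a lower value. Top2a, topoisomerase II, was at 1774 and 1330 (-0.40), Mcm6, a subunit of the replication helicase, at 2123 and 1880, and Ccnd1, cyclin D1, at 168 and 93.7 (-0.63), while the inhibitor gene Cdkn1b was at 992 and 1225 (0.29). Of 12 ribosome biogenesis and MYC-linked genes 9 had a lower value, with a median of -0.13 and none past the limit. Npm1, nucleophosmin, was at 5510 and 5160, and Eif4a1, the translation helicase, at 3929 and 4045. Some genes stand in more than 1 list.

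**Figure D2:**
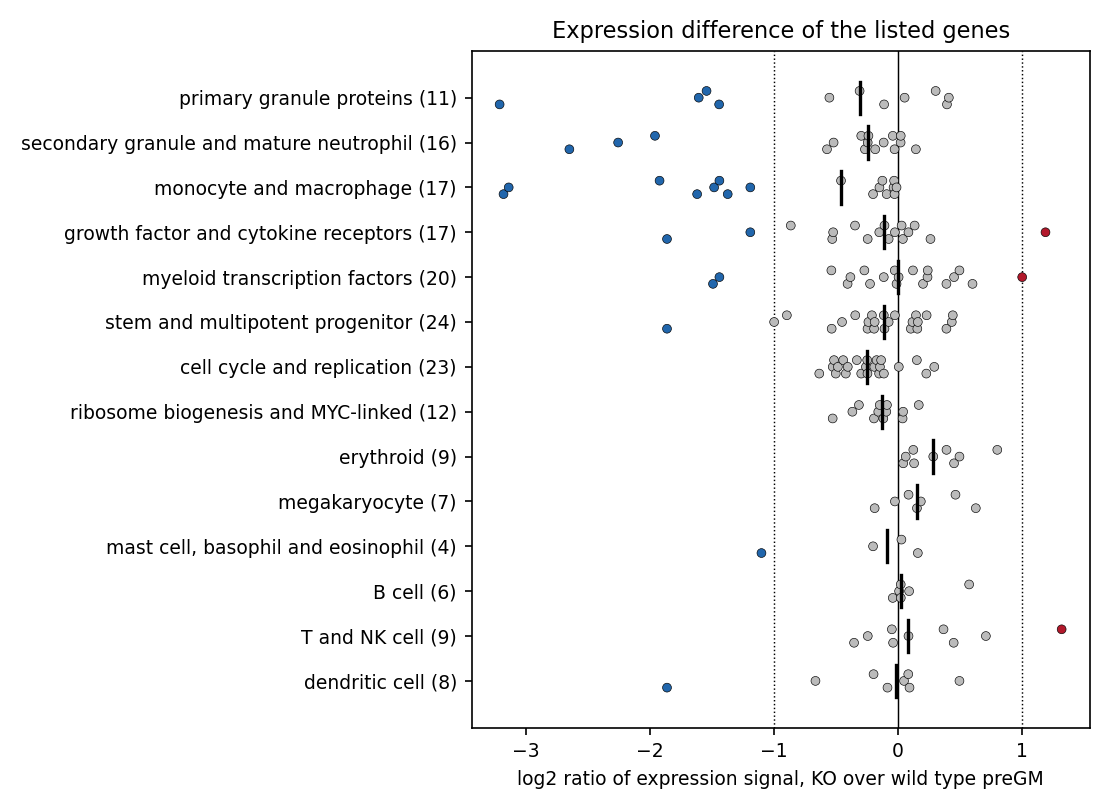
Log2 ratio of expression signal, KO over wild type preGM, for the measured genes of 14 lists (number in brackets); 1 point per gene, blue at least 2-fold lower, red at least 2-fold higher, grey neither, black bar the median, dotted lines 2-fold. The monocyte list has its median at -0.46 and no gene above 0, and the erythroid list has its median at 0.28 and no gene below 0.

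The stage columns show where these genes are used in wild type cells. They share no column with the genotype pair, and the preGM column was left out of the count. Of the 41 genes lower in KO preGM 26 were at least 2-fold higher in GMP than in LSK (63.4%), against 8.16% of all genes, and 1, Flt3, was at least 2-fold lower. Of the 28 genes higher in KO 5 were higher in GMP (17.9%) and 5 lower (17.9%), against 3.46% of all genes lower. Ctsg was at 362 in LSK, 4392 in preGM, 9052 in GMP and 565 in granulocytes. Ms4a3 was at 37.3, 397, 4628 and 78.0 in the same order, and Prtn3 at 1445, 5236, 9962 and 673. These 3 genes of the primary granule list had their highest level in GMP and a lower one in granulocytes.

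A different course was seen at other members. S100a8 was at 26.9 in LSK, 462 in preGM, 2902 in GMP and 8118 in granulocytes, highest in the mature cells, and S100a9 was at 30.5, 220, 579 and 5156. Flt3 was highest in LSK, at 2970, 1894, 146 and 58.8. Emb was near level, at 2156, 1921, 1407 and 2328. Cxcr2 was low in the progenitors, at 53.9, 48.9 and 47.6, and 171 in granulocytes, although the wild type column of the pair has 570. Tox was at 21.1, 15.2, 11.4 and 15.7 against 156 in the pair. Other genes had far more in the preGM column of the stage set than in the wild type column of the pair. Csf1r had 3824 against 140, Prtn3 5236 against 366, Irf8 3260 against 299 and F13a1 2746 against 258. Ms4a6c, with 1055 against 1218, and Emb, with 1921 against 1758, were close. The sets of columns thus give different pictures of wild type preGM for Cxcr2, Tox and several of the granule and monocyte genes. GMP was the highest of the 4 stages for 19 of the 41 lower genes, granulocytes for 11, preGM for 7 and LSK for 4, against 28.3%, 29.8%, 17.8% and 24.0% of all genes in the same order. From GMP to granulocytes 18 of the 41 were at least 2-fold lower and 7 at least 2-fold higher, against 18.9% and 11.4% of all genes.

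**Figure D3:**
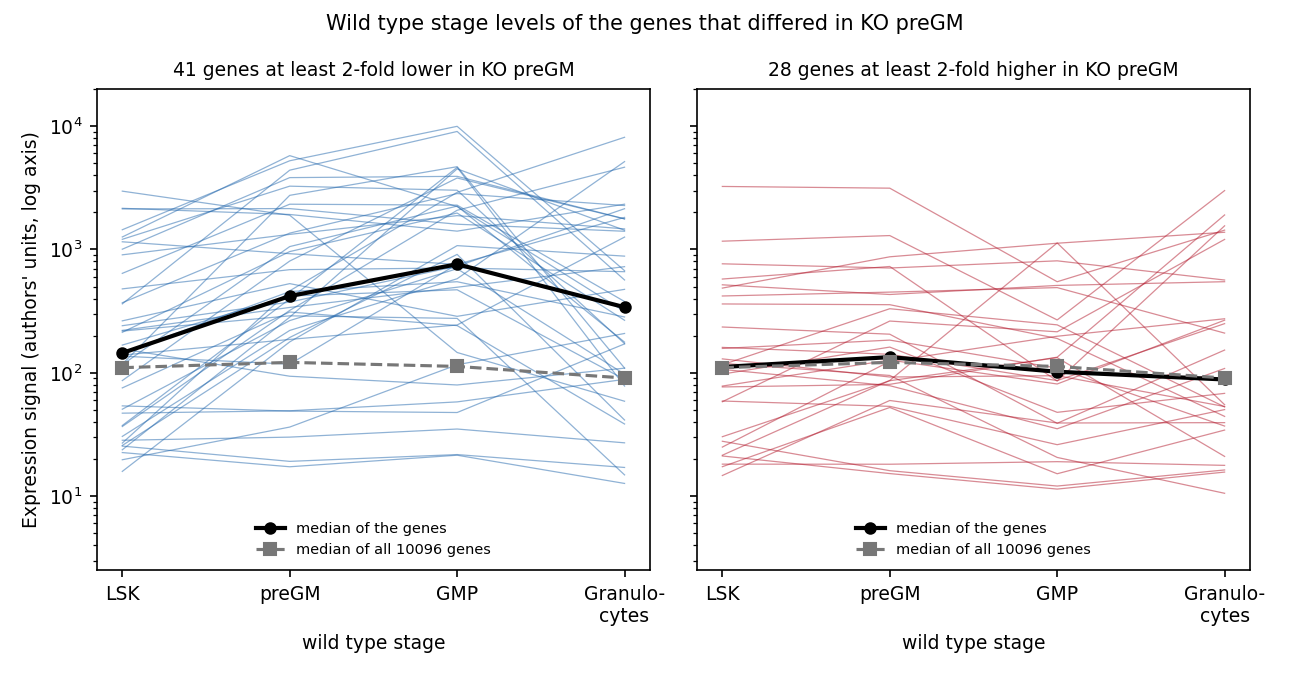
Expression signal (authors' units, log axis) in wild type LSK, preGM, GMP and granulocytes of the 41 genes lower (left) and 28 genes higher (right) in KO preGM; thin lines are single genes, circles the median of the genes, squares the median of all genes. The median of the lower genes is highest in GMP, and that of the higher genes stays near the median of all genes.

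Many genes lower in KO had an enhancer at which the authors' table records CEBPA binding. At least 1 such enhancer was assigned to 30 of the 41 lower genes (73.2%), 14 of the 28 higher genes (50.0%) and 43.9% of all genes. The lower genes also had more enhancers, with a median of 6 against 4 for the higher genes and 2 for all. Among genes with 1 to 5 enhancers the shares were 9 of 17 lower (52.9%), 4 of 17 higher (23.5%) and 31.8% of all. An enhancer bound by both CEBPA and PU.1 was assigned to 21 of the 41 lower genes (51.2%), 7 of the 28 higher and 25.1% of all. A PU.1-bound enhancer was assigned to 30 of the lower genes (73.2%), 18 of the higher (64.3%) and 58.5% of all. These shares too rise with the number of enhancers. Among genes with 1 to 5 enhancers, one bound by both was assigned to 4 of 17 lower (23.5%), 1 of 17 higher (5.88%) and 15.1% of all. In the same genes a PU.1-bound enhancer was assigned to 10 of 17 lower (58.8%), 8 of 17 higher (47.1%) and 48.7% of all. Among the strongest CEBPA signals in wild type preGM at these genes were those at enhancers of F13a1 (7.17), Irf8 (6.74) and Cxcr2 (5.72), while no enhancer of Ms4a3, Ms4a6c or S100a9 is recorded as CEBPA-bound. The record and the preGM signal do not always go together. The highest signal at an enhancer was 0.914 for Ms4a6c, but 0.483 for Anxa3, which has 2 enhancers recorded as CEBPA-bound.

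H3K27ac at the same genes' enhancers differed in the direction of expression, but by much less. Signal was averaged over all enhancers of a gene before taking the ratio, with a pseudocount of 0.6. The median log2 ratio was -0.07 for the 41 genes lower in expression, 0.25 for the 28 higher and 0.08 for all genes. Of the lower genes 32 lay below the median of all genes, and of the higher genes 21 lay above it, where 50.0% of all genes do by construction. None of the 41 was at least 2-fold lower in this measure (0.149% of all genes were), and 1 of the 28, Pde3b, was at least 2-fold higher (0.307%). With this pseudocount a gene with wild type signal under 0.6 cannot be called lower at all. The 41 had a median wild type signal of 0.88, against 1.21 for all genes. The absence of calls is therefore partly set by the pseudocount. With one 4 times smaller the medians were -0.09 for the lower genes, 0.34 for the higher and 0.10 for all. With the strongest enhancer of each gene in place of the mean, the medians were -0.23 for the lower genes, 0.41 for the higher and 0.12 for all. That enhancer was chosen by mean H3K27ac over LSK, preGM, GMP, granulocytes and KO preGM. The strongest enhancers of single genes given below were chosen by mean H3K27ac in wild type and KO preGM alone, so they can differ from it.

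Ctsg had the lowest expression ratio and one of the lowest H3K27ac ratios among the genes lower in KO (-0.69). Its enhancer with the highest H3K27ac, recorded as CEBPA-bound (chromosome 14, 56720767 to 56721138, mm9), had 3.13 in wild type and 0.882 in KO. The CEBPA signal there in wild type preGM was only 0.585, and granulocytes are the only stage listed for this enhancer. Flt3 had 10.8 and 4.27 at its strongest enhancer (chromosome 5, 148211887 to 148211998), and Ccr2 1.40 and 0.624 (chromosome 9, 123982851 to 123983386). The neighbours Prtn3 and Elane were less marked: the strongest enhancer of Prtn3 (chromosome 10, 79343443 to 79343825) had 2.97 and 1.72, that of Elane (chromosome 10, 79346909 to 79347177) 1.49 and 1.10. Abcd2, a peroxisomal transporter gene (113 and 25.9 in expression, -1.22), had a gene-level H3K27ac ratio of -0.58. No mm9 annotation was used here, so the position of these enhancers relative to exons and introns is left unstated.

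Large expression ratios also occurred with gene-level H3K27ac ratios near 0. Ly86, with 43 assigned enhancers, had a gene-level ratio of 0.01, Ms4a6c -0.03, Anxa3 -0.04, Cxcr2 0.03 and S100a8 0.0026. At the enhancer with the highest H3K27ac the first 3 had less in KO, 6.88 and 4.97 at Ly86 (chromosome 13, 37575464 to 37575492), 0.926 and 0.592 at Ms4a6c (chromosome 19, 11559219 to 11559351) and 1.06 and 0.549 at Anxa3 (chromosome 5, 97222212 to 97222236). Cxcr2 with 0.693 and 0.964 and S100a8 with 0.561 and 0.669 did not. S100a9 had more H3K27ac in KO (0.51), from low values of 0.148 and 0.468, under the pseudocount. The gene-level wild type values of Cxcr2 (0.498), S100a8 (0.422) and Anxa3 (0.592) were under the pseudocount as well. Their ratios therefore could not reach 2-fold lower. Cebpa itself had 2.31 in wild type and 3.26 in KO over its 16 enhancers (0.41). The strongest of them (chromosome 7, 35904704 to 35904792) had 7.48 and 14.9 for H3K27ac, but 3.99 and 0.857 for H3K4me1. At Cebpg the strongest enhancer (chromosome 7, 35841235 to 35841695, CEBPA-bound) had H3K27ac of 4.40 and 7.18, beside its higher expression.

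Among genes higher in KO, Pde3b, a phosphodiesterase (106 and 272, 1.10), has a single enhancer (chromosome 7, 121558668 to 121558714), with H3K27ac of 1.25 in wild type and 3.84 in KO. Scin, also with 1 enhancer (chromosome 12, 40860903 to 40860966), had 0.803 and 1.37, and Clec4e 0.646 and 1.73 at its strongest (chromosome 6, 123237989 to 123238361). Car2, short of 2-fold in expression, had 1.59 and 4.93 at its strongest enhancer (chromosome 3, 14887447 to 14887718). A gene-level ratio below 0 was found for 7 of the 28, against 3877 of all 10096 genes. The lowest were Il1rl1 at -0.25, Tcf7 at -0.20, Eps8l3 at -0.11 and Lphn2 at -0.08. The strongest enhancer of Il1rl1 (chromosome 1, 40449035 to 40449262) had a log2 ratio of -0.54.

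H3K4me1 ratios were mostly small with the pseudocount used. The median log2 ratio was -0.01 for the lower genes, 0.14 for the higher and 0.13 for all (pseudocount 2), and 36 of the 41 lower genes lay below the median of all genes. None of the 69 genes was past 2-fold in this mark (0.0099% of all genes were at least 2-fold lower). A gene with wild type signal under 2 cannot be called lower with this pseudocount, and the 41 had a median wild type signal of 2.96. The size of the ratios and the absence of calls are therefore partly set by the pseudocount, and no other was tried for H3K4me1. Both H3K27ac and H3K4me1 were below the medians of all genes at 27 of the 41 (65.9%), against 2726 of all 10096 genes, and both were above at none, again against 2726.

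PU.1 signal was lower in KO over the table as a whole, with a median log2 ratio of -0.40 over all genes (pseudocount 0.6), beside the lower Spi1 level. Relative to that shift the 41 genes lower in expression were at -0.20 and the 28 higher genes at 0.05; before subtracting it both were negative, -0.60 and -0.34. Of the lower genes 29 lay below the median of all genes, and 6 of 41 were at least 2-fold lower in PU.1, against 3.39% of all genes. Among the higher genes 1 of 28 was, Pde3b. None of the 69 was at least 2-fold higher in PU.1 (0.0396% of all). This ordering depends on how enhancers are combined: with the median over a gene's enhancers in place of the mean signal, the lower genes were at -0.24, the higher at -0.23 and all genes at -0.29. With the strongest enhancer of each gene, by mean PU.1 signal over LSK, preGM, GMP and KO preGM, they were at -0.86, -0.52 and -0.52.

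Single enhancers were counted as well. PU.1 was at least 2-fold lower at 53 of 375 enhancers of the lower genes (14.1%), 7 of 159 of the higher (4.40%) and 6.15% of all 44002. At CEBPA-bound enhancers the shares were 27 of 113 (23.9%) for the lower genes and 13.4% of all. For H3K27ac 12 of 375 (3.20%) were at least 2-fold lower, against 0.730% of all, and 5 (1.33%) at least 2-fold higher, against 0.686%. H3K4me1 was at least 2-fold lower at 3 of the 375, against 0.00909% of all, and PU.1 at least 2-fold higher at 1, against 0.0955%. The enhancers of a gene are not independent of each other, and 43 of the 375 belong to Ly86.

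Enhancers recorded as bound by both factors with large PU.1 differences were found at lower and higher genes. At Elane PU.1 had 5.99 in wild type and 0.977 in KO (chromosome 10, 79348318 to 79348878), where H3K27ac was 0.419 and 1.19, the opposite direction. Tmem150b, a membrane protein gene (258 and 77.7 in expression, -1.34), had 10.6 and 2.11 (chromosome 7, 4676087 to 4676164). F13a1 had 9.88 and 3.27 (chromosome 13, 37148807 to 37149060) and Cxcr2 14.1 and 4.63 (chromosome 1, 74202074 to 74202240). At both of these H3K27ac was close to equal or higher in KO, 0.750 and 0.744 at F13a1 and 0.657 and 0.858 at Cxcr2. Emb had 21.5 and 6.59 (chromosome 13, 118026109 to 118026282). Aqp11, higher in expression, had 26.5 and 9.92 (chromosome 7, 104913769 to 104914094), with H3K27ac of 2.27 and 1.10.

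At PU.1 enhancers not recorded as CEBPA-bound, Hk3, a hexokinase of myeloid cells (282 and 62.5 in expression, -1.65), had 11.9 and 2.66 (chromosome 13, 55121956 to 55122320), with H3K27ac of 1.77 and 0.549. Ms4a6c had 8.65 and 2.99 (chromosome 19, 11543234 to 11543937). Pde3b, higher in expression and in H3K27ac, had less PU.1 in KO, 4.36 and 1.67. Spi1 had 8.02 and 2.05 at one of its own enhancers (chromosome 2, 90927035 to 90927247), where H3K27ac was 0.785 and 0.748.

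**Figure D4:**
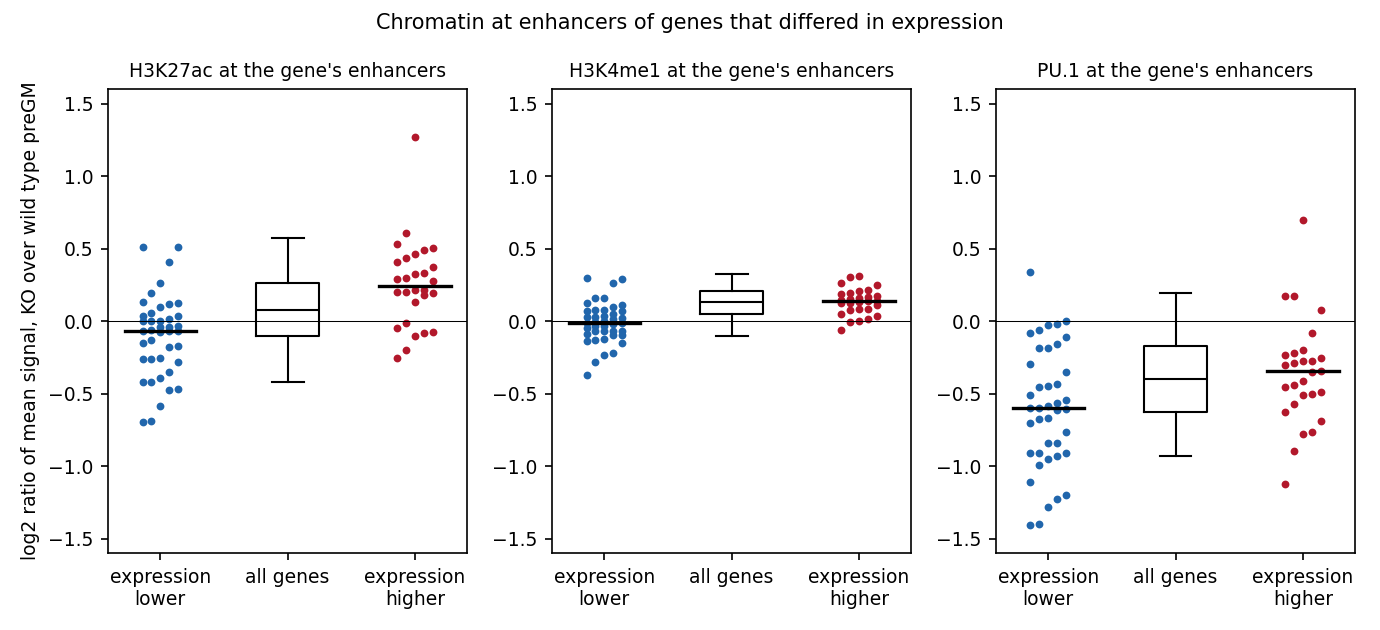
Log2 ratio of mean H3K27ac, H3K4me1 and PU.1 signal over a gene's enhancers, KO over wild type preGM, for the 41 genes lower and 28 higher in expression (points, with the median as a bar) and all genes (box of quartiles, whiskers from the 5th to the 95th percentile). The lower genes have medians of -0.07, -0.01 and -0.60 against 0.08, 0.13 and -0.40 for all genes.

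Over all genes, the correlations of expression with chromatin ratios were low. Since 96.3% of expression ratios lay within 0.5 of no difference and their error is unknown, low correlations cannot show a lack of relation. Spearman correlations across the 10096 genes were 0.13 for H3K27ac, 0.03 for H3K4me1 and 0.06 for PU.1, and across the 69 genes past 2-fold in expression 0.44, 0.54 and 0.23. The 69 were selected for extreme expression ratios, which by itself can raise a correlation, so their values are not comparable with those over all genes. Genes are not independent replicates, and all points share the same libraries. Read the other way, the 15 genes at least 2-fold lower in H3K27ac had a median expression ratio of -0.06 and none was past 2-fold in expression, and the 31 at least 2-fold higher had 0.05, with Pde3b the 1 that was. Both sets have a median of 1 enhancer per gene. The 342 genes at least 2-fold lower in PU.1 had a median expression ratio of -0.0035, with 6 lower (1.75%, against 0.406% of all genes) and 1 higher (0.292%, against 0.277%) by 2-fold. Both H3K27ac and PU.1 lay below the medians of all genes at 23 of the 41 lower genes (56.1%) and above at 3 (7.32%), against 25.5% of all genes each. Among the 28 higher genes both lay above at 12 (42.9%) and below at 4 (14.3%).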

How the data were processed

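The deposited table lists 44002 enhancers (build mm9), and 21 of its value columns were used. The ChIP columns hold signal that the authors deposited as 1 value per enhancer and group, and the expression columns hold a score that the authors deposited as 1 value per gene and group, on a scale that is not stated; none is negative and all were read as linear. Pooling and scaling are likewise unstated. Another 11 value columns were not used. The submitters' processing notes name STAR, featureCounts, DESeq2, Bowtie2, MACS2 and bedtools, with no versions. Columns were matched to groups by assay, stage and genotype in their names. With 1 value per group no test was possible; log2 ratios were computed with pseudocounts (40 for expression, 0.6 for H3K27ac and PU.1, 2 for H3K4me1) in Python 3.11.15 with pandas 2.3.3, and the steps were tested on simulated data. Depth is unknown, so no interval is given. The members and the 14 lists were chosen with earlier results of these data known. Genes named are the 12 highest and 12 lowest among those at or above the median level in their higher group, up to 4 and 2 per direction from each list (or the 2 of highest level), Cebpa and Spi1, and the 6 largest each for H3K27ac and PU.1; a few that the rule picks are left out here, and others named beside a list or limit were chosen after their values were seen. Of 10096 symbols 9226 matched RefSeq directly and 829 by synonym.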

Additional observations from a re-analysis of the deposited data

How the results depend on the processing

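With a pseudocount 4 times larger, 12 genes were at least 2-fold higher and 17 lower in KO, and with none (added after seeing the data) 48 and 70. All 12 and 17 were among the 28 and 41 reported, and all 28 and 41 were among the 48 and 70. A pseudocount 4 times smaller gave 40 and 53, a filter on low values 28 and 39, and centring and the mean over rows the same counts. Of 51 named genes 17 moved across the 2-fold limit with the larger pseudocount, Cebpa (-0.82) and Cebpg (0.91) among them, and none with centring, a smaller pseudocount or none. Median H3K27ac at the higher genes was 0.41 at the strongest enhancer and 0.11 with a pseudocount 4 times larger, and at the lower genes -0.23 at the strongest enhancer; a pseudocount of 0.7 in place of 0.6, also added later, gave 0.23 and -0.063. Median PU.1 at the higher genes was -0.52 at the strongest enhancer, -0.23 as the median over enhancers, -0.21 with a pseudocount 4 times larger, and 0.054, of opposite sign, after centring. At the lower genes it was -0.86, -0.24, -0.37 and -0.20 in that order, and -0.76 with a pseudocount 4 times smaller. The count of lower genes above 2-fold in GMP over LSK was 21 to 26. No paired analysis was possible because the columns hold 1 value per group with no replicates, and no library could be left out. Depth per library is unknown, and low values, such as H3K27ac at S100a9, rest on the pseudocount.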
